A study of Mus musculus with 6 samples.

Results

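The 44 genes described here encode the NF-κB transcription factors, their inhibitors and kinases, the TNF, Toll-like and IL-1 receptors with their adaptors, and cytokines that act through them. They were taken by gene symbol, not by a threshold on their values, from a table of 22322 genes, and all 44 had a row in it. RNA-seq was performed on the arcuate nucleus (ARC) of the hypothalamus, cut from 20 µm frozen brain sections by laser capture microdissection (LCM), in male C57BL/6J mice. From the age of 4 weeks, and for 16 weeks in all, the mice ate either normal chow with 16.5% fat (NCD) or a diet with 60% fat (HFD). Each diet had 3 samples, called NCD1 to NCD3 on chow and HFD1 to HFD3 on the fat diet. The study crossed Kiss1-Cre with R26R-EYFP mice to see the Kiss1 neurons, and its text does not say whether the sequenced mice carried these alleles or whether a sample came from 1 mouse or from several. A p-value below therefore measures the spread between these 6 samples.

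In resting cells the NF-κB dimers are held in the cytoplasm by IκB proteins. Signals from TNF, IL-1 and Toll-like receptors pass through adaptors and ubiquitin ligases to the IκB kinase (IKK) complex, which marks the IκB proteins for destruction and so frees the dimers to enter the nucleus. The dimers then switch on cytokine genes as well as genes of their own inhibitors. In the brain, microglia carry most of the Toll-like receptors, while neurons and astrocytes also possess the core of the pathway. The study sought genes with a part in the release of luteinizing hormone. In separate assays of the hypothalamus it measured NF-κB activity by phosphorylation of the RelA protein. RNA levels of the pathway genes do not measure that phosphorylation.

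The labels give the tissue only as brain. All 14 arcuate neuron markers (among them Agrp, Pomc and Kiss1) passed the filter on low counts. Kiss1 itself had 0, 27 and 32 reads on NCD and 0, 21 and 42 on HFD, so NCD1 and HFD1 held none. The summed level of the 14 was 2558 ± 590 CPM (read counts scaled to each library's TMM-adjusted size) on NCD and 2909 ± 282 CPM on HFD (SD, n = 3 each). Avp and Oxt, markers of neighbouring nuclei, were also abundant, and Avp lay at 3077 ± 1583 CPM on NCD against 941 ± 109 CPM on HFD. All 16 microglial markers passed the filter. The samples therefore held RNA of neurons, glia and neighbouring nuclei together, and fewer cells of a type cannot be told apart from less RNA per cell.

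Several of the 44 genes are themselves known NF-κB targets, and the start regions of some are shown. RefSeq promoter sequences (build GRCm38.p6) were found for 34 of the 44 genes, and 10 had no entry. The 250 bases before each start were searched on both strands for the κB consensus, the sequence that NF-κB dimers bind, and overlapping matches were counted. A match stood in 11 of the 34 genes, Il1r1, Il6, Nfkb2, Nfkbia, Nfkbie, Nlrp3, Rel, Tlr2, Tlr3, Tnfaip3 and Traf3, which is 32.4% against 4.46% of all 27025 genes with such a window. The windows of Nfkbia and Tnfaip3, the classical feedback inhibitors, and of Rel and Tlr2, whose samples separated by diet, are printed on the minus strand, with the matching bases in capitals and without any base that GENCODE annotates as exonic. They lie at chr12:55492648-55492897 (Nfkbia), chr10:19015411-19015547 (Tnfaip3), chr11:23770971-23771219 (Rel) and chr3:83841768-83841858 (Tlr2). Among the cytokine genes Il6 had a match, while Tnf, Il1a, Il1b and Il18 had an entry but no match. The 44 genes were chosen for their part in the pathway, and a gene could have several windows. A match is a string of letters and was not tested for binding here.
Nfkbia: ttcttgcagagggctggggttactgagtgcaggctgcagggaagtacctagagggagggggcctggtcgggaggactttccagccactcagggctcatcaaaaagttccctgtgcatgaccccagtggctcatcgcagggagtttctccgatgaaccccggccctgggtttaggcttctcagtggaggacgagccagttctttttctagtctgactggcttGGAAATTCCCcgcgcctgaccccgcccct
Tnfaip3: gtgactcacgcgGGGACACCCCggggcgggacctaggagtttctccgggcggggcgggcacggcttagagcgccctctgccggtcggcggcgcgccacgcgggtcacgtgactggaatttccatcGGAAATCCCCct
Rel: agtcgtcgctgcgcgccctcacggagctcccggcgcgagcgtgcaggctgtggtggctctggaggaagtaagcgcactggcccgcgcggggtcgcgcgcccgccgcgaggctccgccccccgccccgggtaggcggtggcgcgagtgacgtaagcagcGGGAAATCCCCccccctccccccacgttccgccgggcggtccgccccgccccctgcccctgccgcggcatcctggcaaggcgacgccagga
Tlr2: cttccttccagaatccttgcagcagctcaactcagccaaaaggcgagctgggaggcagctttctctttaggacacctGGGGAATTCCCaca
In Nfkbia the match began 29 bases before the start. In Tnfaip3 there were 2 separate matches, which began 125 and 12 bases before it. In Rel and in Tlr2 the capitals are 3 overlapping matches in 11 bases, the outermost of which began 92 bases before the start in Rel and 173 in Tlr2.

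The 44 genes spanned a wide range of levels per transcript length, given as FPKM (fragments per kilobase of transcript, adjusted for sequencing depth). A mean of at least 10 FPKM was reached by 7 genes, 21 lay from 1 to under 10, and 16 lay under 1. The most abundant was Il18, a cytokine made as an inactive precursor, with 27.2, 38.6 and 52.3 FPKM on NCD and 42.5, 36.3 and 29.8 FPKM on HFD. Nfkbia, which encodes IκBα, followed at a mean of 28.8 FPKM, then Irak1, a kinase recruited to MyD88, at 25.9, Nfkbib (IκBβ) at 24.9 and Chuk (IKKα) at 18.8 FPKM. Each of the 5 was present in every sample, and the diets overlapped in every one of them. Among the subunits the order Rela, Nfkb1, Nfkb2 (7.41, 4.05 and 2.06 FPKM on average) held in 6 of 6 samples, Nfkb2 and Relb (1.85 FPKM) exchanged places in 3 of 6, and Rel was the lowest in 6 of 6 at 0.777 FPKM. Chuk stood above Tbk1, an IKK-related kinase, in only 3 of 6 samples, and Nfkbia above Nfkbib in 4 of 6, so these neighbours did not differ beyond their spread. Il18 exceeded the next cytokine, the chemokine gene Ccl2 (1.26 FPKM), by 29.9-fold in the mean and in 6 of 6 samples.

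**Figure D1:**
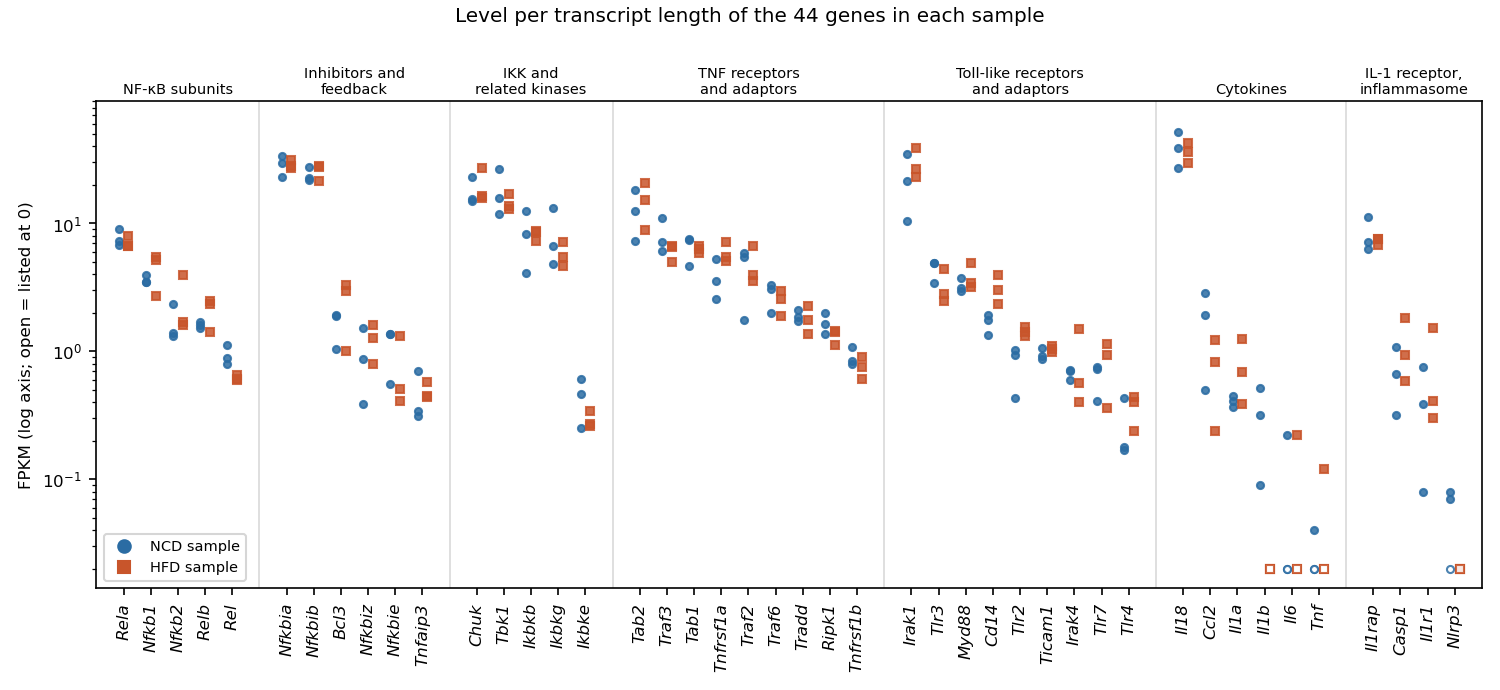
FPKM (log axis) of the 44 genes in each of the 6 samples, grouped by role and ordered by mean level within a role; circles are NCD and squares HFD, and open symbols at the bottom mark values listed at 0. The points of the 2 diets overlap for most genes, and Il1b, Il6, Tnf and Nlrp3 reach 0 in 1 or more samples.

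The first question was whether the diet changed the RNA of the pathway. Of the 44 genes, 36 passed edgeR's filter on low counts, and none of them had an adjusted p-value under 0.05 in edgeR's quasi-likelihood test with Benjamini-Hochberg adjustment over 14188 genes (adjusted p = 0.999 for the lowest). DESeq2 and limma called none either. Among all genes tested, 8 passed (0.0564%), 7 of them immediate early genes such as Fos and Nr4a1. Without adjustment, 1 of the 36 had p under 0.05 (Cd14), beside 326 of all genes tested (2.3%), 1.21% with higher and 1.09% with lower values on HFD. The log2 fold change, HFD against NCD, was above 0 for 20 of the 36 and below 0 for 16, with a median of 0.06 beside 0.00 for all genes tested. For 19 of the 36 the 95% interval lay within a 2-fold change in either direction. The distance from the estimate to the ends of that interval ran from 0.42 to 1.60 on the log2 scale, and for the others the interval took in a 2-fold change in at least one direction.

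**Figure D2:**
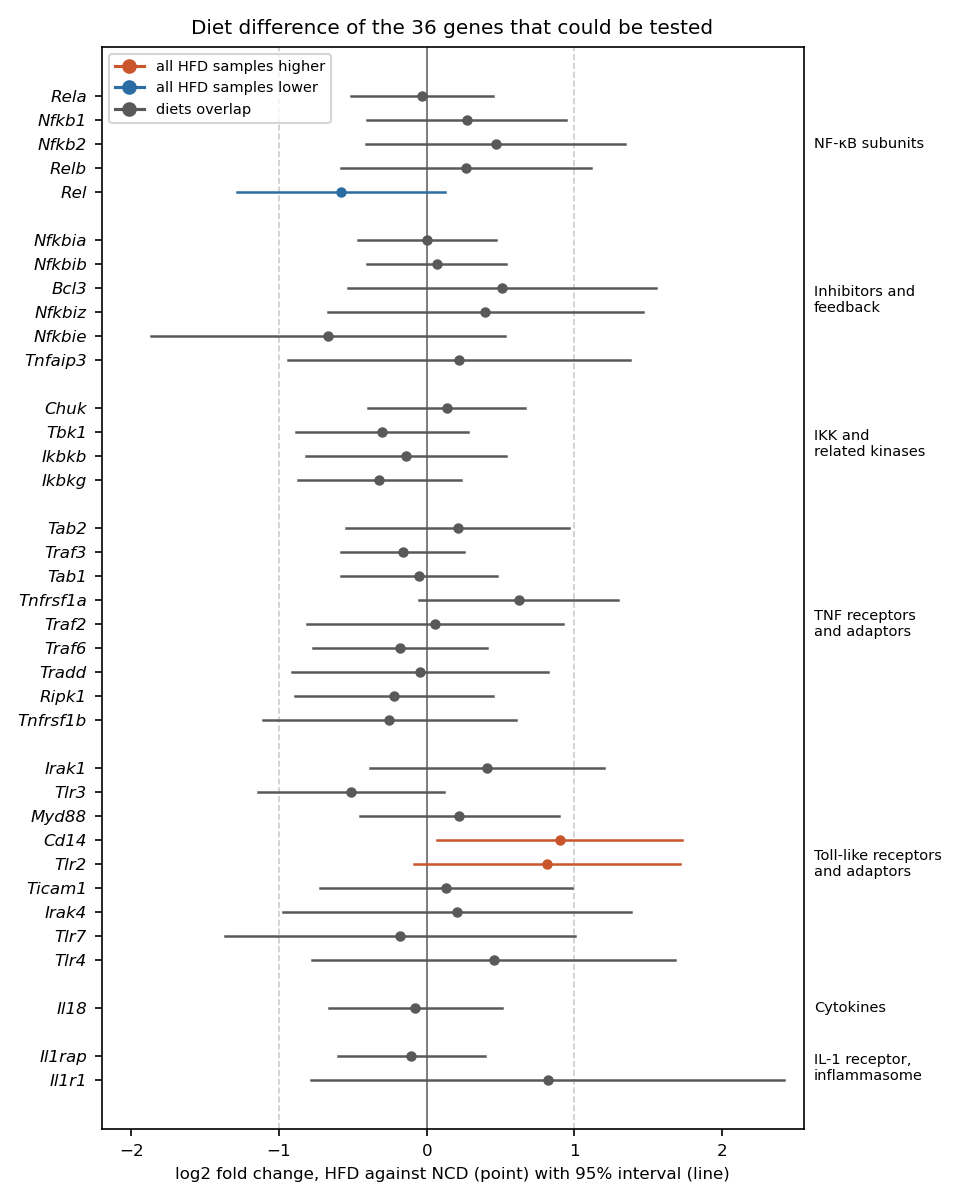
Log2 fold change (HFD against NCD, edgeR) of the 36 genes that could be tested, by role, with 95% intervals as lines and 2-fold changes as dashed lines. Only the interval of Cd14 leaves out 0; Cd14 and Tlr2 are drawn in orange and Rel in blue because their samples do not overlap between the diets.

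Next, each gene was examined for a full separation of the samples by diet. The samples of the diets did not overlap in log2 CPM for 3 of the 36 genes, where 6.47% of all genes tested showed such a separation. Cd14 and Tlr2 were higher on HFD and Rel was lower, and separation in one given direction occurred for 3.24% of all genes. With 3 samples against 3 a two-sided exact permutation test cannot give a p below 0.1. Full separation always gives that p, so for these 3 genes it restates the separation and is no further test.

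Cd14 encodes a co-receptor that hands lipopolysaccharide and other ligands to Toll-like receptors. It was measured at 3.01, 2.24 and 3.01 CPM on NCD and at 6.46, 5.13 and 3.76 CPM on HFD. Every HFD sample was above every NCD sample, and HFD3 came nearest to them. The log2 fold change was 0.90 ± 0.38 (SE) with a 95% interval from 0.07 to 1.73, which is a fold between 1.05 and 3.32 (edgeR p = 0.0355, adjusted p = 0.999, exact permutation p = 0.1). The edgeR p was 0.0534 without NCD1, 0.115 without NCD2, 0.0523 without NCD3, 0.17 without HFD1 and 0.0707 without HFD2, and 0.0203 without HFD3, while the log2 fold change stayed between 0.70 and 1.07.

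Tlr2, the receptor for bacterial lipopeptides, showed 2.95, 2.85 and 1.35 CPM on NCD and 3.98, 4.44 and 4.52 CPM on HFD. The HFD samples lay close together, and the low value of NCD3 widened the gap between the diets. The log2 fold change was 0.81 ± 0.41 (SE) with an interval from -0.09 to 1.71 (edgeR p = 0.0723, adjusted p = 0.999, exact permutation p = 0.1), and it was 0.57 without NCD3. The counts behind these values were small, with 9 to 49 reads per sample for Tlr2 and 20 to 52 for Cd14.

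Rel encodes c-Rel, a subunit best known from lymphoid and myeloid cells. Its level was 5.72, 8.45 and 6.77 CPM on NCD and 4.85, 4.73 and 4.33 CPM on HFD. The 3 HFD samples were nearly equal and all lay below the NCD samples. The log2 fold change was -0.58 ± 0.32 (SE), with an interval from -1.28 to 0.12 (edgeR p = 0.0967, adjusted p = 0.999, exact permutation p = 0.1).

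**Figure D3:**
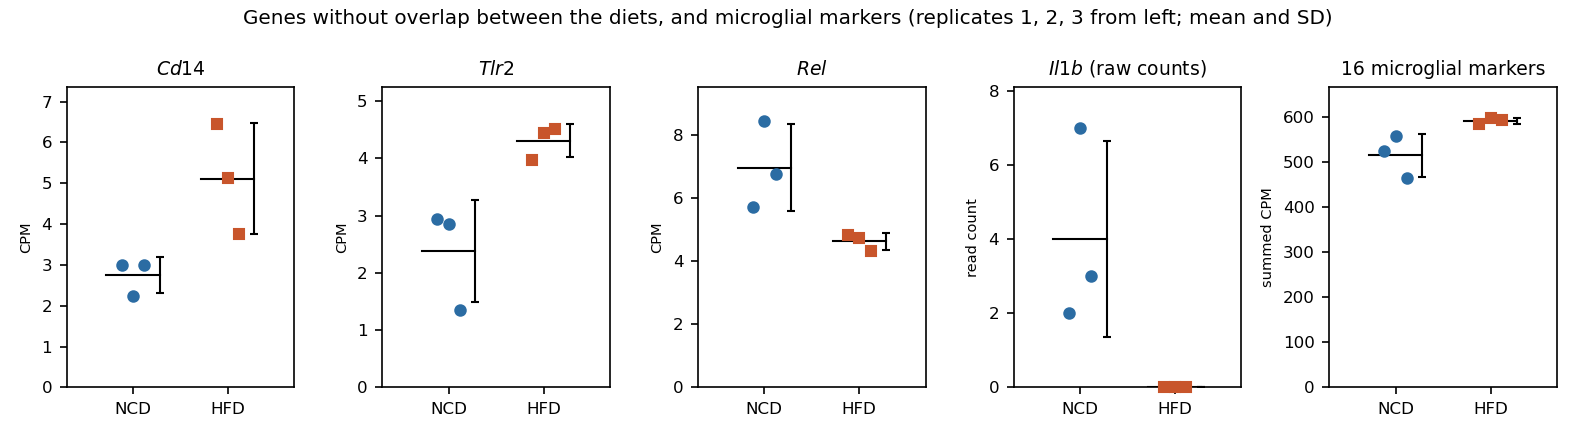
CPM of Cd14, Tlr2 and Rel, raw read counts of Il1b, and the summed CPM of 16 microglial markers in each sample, with the mean as a horizontal line and the SD as a bar (n = 3 per diet). Cd14, Tlr2 and the microglial sum are higher in all HFD samples, Rel is lower in all of them, and Il1b has 0 counts in all 3 HFD samples.

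Microglial markers, like Cd14 and Tlr2, had higher values on HFD. The 16 markers summed to 524, 557 and 463 CPM on NCD and to 583, 597 and 592 CPM on HFD, so the diets did not overlap in the sum. Of the difference of 75.9 CPM between the diet means, 57.5 CPM came from the 3 complement genes C1qa, C1qb and C1qc. The other 13 markers, split off after the values were seen, summed to 368, 373 and 311 CPM on NCD and 361, 391 and 355 CPM on HFD, where the diets overlapped. Of the 16, 11 had a log2 fold change above 0 and the median was 0.18. Without adjustment, 2 passed p under 0.05 in edgeR, beside 2.3% of all genes tested. These were the complement genes C1qa (0.46) and C1qb (0.44), both with an adjusted p = 0.999. Tmem119 and P2ry12, which define resident microglia, lay at 23.4 and 26.9 CPM on NCD and 23.3 and 25.6 CPM on HFD. Among the other markers outside the C1q genes, Fcrls (0.43), Aif1 (0.40) and Tyrobp (0.39) had higher values on HFD. Of the 16, 5 had a log2 fold change below 0. The samples did not overlap for 3 of the 16 (C1qb, C1qc and Fcrls), all higher on HFD, beside 3.24% of all genes tested. Divided by the sum of all 16 markers, the C1q genes included, Cd14 was 5.75, 4.02 and 6.49 CPM per 1000 CPM of markers on NCD and 11.1, 8.59 and 6.35 on HFD, and the diets then overlapped (exact permutation p = 0.2). Divided by the other 13 markers alone, Cd14 was 8.17, 6.01 and 9.68 on NCD and 17.9, 13.1 and 10.6 on HFD, without overlap. The overlap against all 16 rested on HFD3 (6.35) and NCD3 (6.49), which had 20 Cd14 reads each. Against all 16 markers, Tlr2 was 5.63, 5.12 and 2.92 on NCD and 6.82, 7.44 and 7.62 on HFD and still separated (exact permutation p = 0.1, the smallest possible). For Rel the values were 10.9, 15.2 and 14.6 on NCD against 8.32, 7.93 and 7.31 on HFD (exact permutation p = 0.1). That separation was fixed in advance, because every HFD sample was lower in Rel and higher in the marker sum.

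Markers of blood and border myeloid cells were scarce. Only Lyz2 of 10 passed the filter, with a log2 fold change of 0.61 (edgeR adjusted p = 0.999), and it was also the most abundant at 11.4 CPM. Its samples did not overlap, at 8.85, 10.3 and 7.82 CPM on NCD and 12.7, 10.7 and 18.1 CPM on HFD. The 10 summed to 12.6, 16.0 and 11.3 CPM on NCD and 17.4, 14.8 and 27.8 CPM on HFD, with HFD3 the highest. None of the 10 was at 0 in every sample. What these cells or the microglia contributed to the values of Cd14, Tlr2 and Rel was not tested.

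The other subunits overlapped between the diets. Rela, the main transactivating subunit (p65), was among the steadiest of the 36 genes, at 18.2, 22.4 and 19.0 CPM on NCD and 21.6, 18.8 and 17.7 CPM on HFD. Its log2 fold change was -0.03 ± 0.22 (SE), and the interval from -0.51 to 0.45 corresponds to a fold between 0.701 and 1.36. Nfkb1, the precursor of p50, lay at 11.3, 9.26 and 9.18 CPM on NCD and 14.3, 7.29 and 14.7 CPM on HFD, where HFD2 was the lowest of the 6 samples. Its log2 fold change was 0.27 ± 0.31 (SE), and it was 0.54 without HFD2 and 0.11 without HFD3. Nfkb2 (precursor of p52) and Relb, the pair of the alternative pathway, had log2 fold changes of 0.47 and 0.27.

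Nfkbia, whose transcription rises when NF-κB is active in many cell types, had the same mean on both diets. It was measured at 34.9, 47.0 and 54.9 CPM on NCD and at 42.9, 45.5 and 48.4 CPM on HFD, and the HFD values fell inside the range of the NCD values. The log2 fold change was 0.00 ± 0.22 (SE), with an interval from -0.46 to 0.47, or a fold between 0.725 and 1.39. Nfkbib had 26.6, 34.7 and 29.5 CPM on NCD and 33.6, 35.5 and 25.8 CPM on HFD, with a log2 fold change of 0.07 ± 0.22 (SE), and shares 16.4% of its exonic bases with neighbouring genes. Tnfaip3, the deubiquitinase A20 that ends NF-κB signalling, was low and scattered, at 2.95, 0.814 and 1.5 CPM on NCD and 2.49, 1.97 and 1.88 CPM on HFD. Its interval reached from -0.94 to 1.38 on the log2 scale, so a 2-fold rise was not outside what these samples allow. Nfkbie (IκBε) had the lowest log2 fold change of the 36 genes, -0.67 ± 0.55 (SE), from 3.19, 3.36 and 1.35 CPM on NCD and 0.994, 1.28 and 3.01 CPM on HFD. NCD3 and HFD3 each lay with the other diet, and the log2 fold change was -0.38 without HFD1 and -1.23 without HFD3. Bcl3 and Nfkbiz, nuclear IκB-like proteins, had log2 fold changes of 0.51 and 0.40.

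Of the 5 kinase genes of this group, 4 could be tested. Chuk was at 77.5, 52.8 and 56.4 CPM on NCD and 56.9, 56.7 and 92.6 CPM on HFD, and the highest sample of each diet lay far above the other two. Ikbkb (IKKβ), the kinase of the canonical pathway, was at 44.4, 29.3 and 15.3 CPM on NCD and 26.8, 29.0 and 25.8 CPM on HFD. The HFD samples lay within the wide range of the NCD samples, and the log2 fold change was -0.14 ± 0.31 (SE), which turned to 0.27 without NCD1. Ikbkg (NEMO), the regulatory subunit, was at 55.5, 35.9 and 30.4 CPM on NCD and 31.6, 38.8 and 27.3 CPM on HFD, with a log2 fold change of -0.32 ± 0.25 (SE), which was -0.034 without NCD1 and -0.48 without NCD3. Tbk1 had -0.30 ± 0.27 (SE). No kinase passed p under 0.05 in edgeR.

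**Figure D4:**
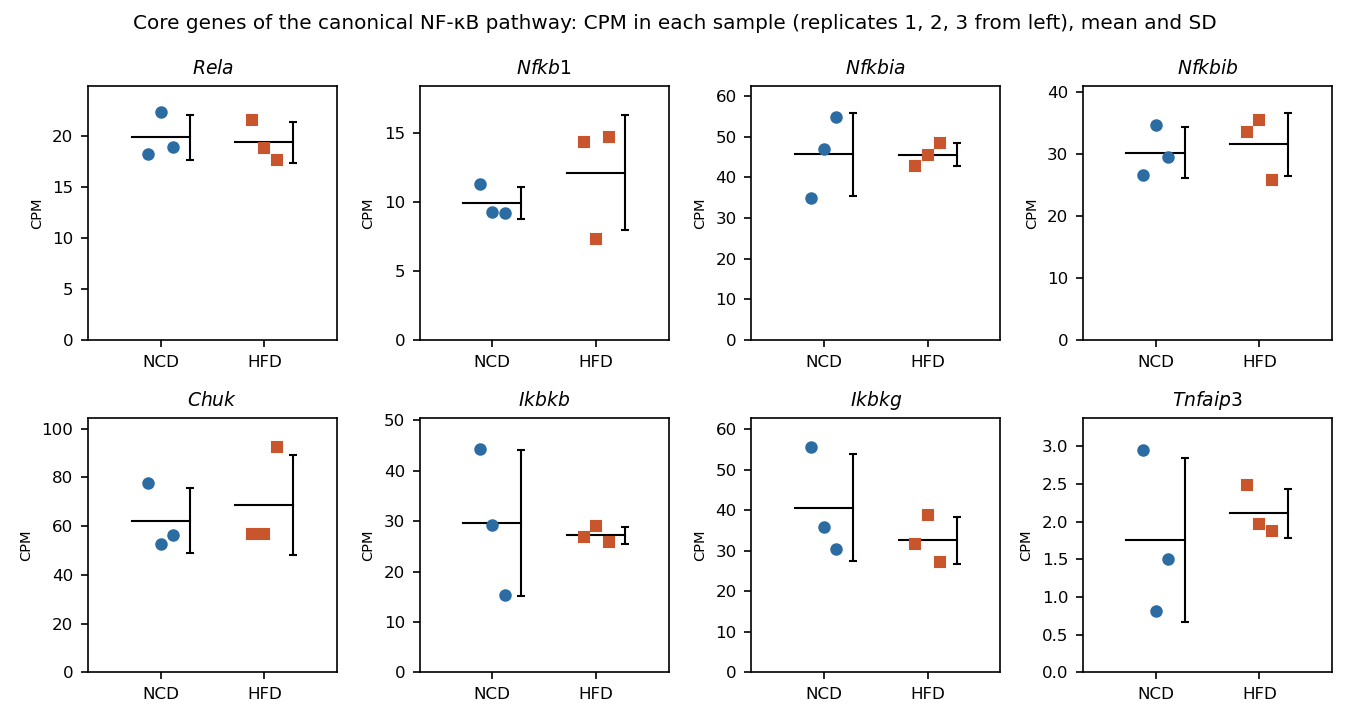
CPM of 8 core genes of the canonical pathway in each sample, with the mean as a horizontal line and the SD as a bar (n = 3 per diet). The diets overlap in all 8 panels, and the NCD samples of Ikbkb spread from 15.3 to 44.4 CPM.

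Of the TNF receptors and their adaptors, Tnfrsf1a (TNFR1) came nearest to a difference. It lay at 7.34, 11.5 and 5.72 CPM on NCD and 10.9, 12.1 and 15.1 CPM on HFD, where HFD1 was below NCD2, and its log2 fold change was 0.62 ± 0.31 (SE, edgeR p = 0.0683, exact permutation p = 0.2). Tnfrsf1b (TNFR2) had a log2 fold change of -0.25. The adaptors Tradd, Ripk1, Traf2, Traf3, Traf6 and Tab1 lay between -0.22 and 0.06. Traf3, a ubiquitin ligase that restrains the alternative pathway, varied least of the 36 genes in CPM, from 35.9 to 44.4 over the 6 samples, but ran from 4.98 to 11.1 in FPKM. Tab2, an adaptor of the kinase TAK1, ran from 30.1 CPM in NCD1 to 88.4 CPM in HFD3.

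Among the remaining Toll-like receptor genes, Tlr3, the sensor of double-stranded RNA, was at 17.5, 9.57 and 12.3 CPM on NCD and 8.20, 9.27 and 10.3 CPM on HFD. NCD2 overlapped the HFD samples, and the log2 fold change was -0.51 ± 0.29 (SE, edgeR p = 0.103, exact permutation p = 0.2). It was -0.25 without NCD1 and -0.70 without NCD2, where the unadjusted edgeR p fell to 0.0493. Tlr4, the lipopolysaccharide receptor with which CD14 works, was low at 0.713 to 1.87 CPM and had a log2 fold change of 0.45 with an interval from -0.77 to 1.68. Tlr7, the sensor of single-stranded RNA, had -0.18. The adaptors Myd88 and Ticam1 (TRIF) had 0.22 and 0.13, and the kinases Irak4 and Irak1 0.20 and 0.41. Irak1 was at 37.3, 76.8 and 130.9 CPM on NCD and at 97.9, 83.0 and 142.8 CPM on HFD, which is a spread of 3.83-fold over the samples.

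The cytokine genes were mostly too low to measure. Below the filter lay 8 genes, Ikbke, Tnf, Il6, Il1a, Il1b, Ccl2, Nlrp3 and Casp1, which are given as read counts in the order NCD1 to NCD3 and HFD1 to HFD3. Il1b, encoding IL-1β, had 2, 7 and 3 reads on NCD and none in the 3 HFD samples. Against a floor of 3 reads over the HFD samples together, Il1b was at least 2.89-fold lower on HFD. That limit rests on 12 NCD reads, 7 of them in NCD2, and would be smaller without that sample. It does not take in the counting error of the NCD reads. In edgeR without the filter its p was 0.0204 (adjusted p = 0.998), and in DESeq2 0.0488, which did not pass adjustment either. Of the 751 genes with 8 to 16 reads in all, 13 had reads in every NCD sample and none on HFD, and 4 showed the reverse. Tnf had 1, 0 and 0 reads on NCD and 0, 2 and 0 on HFD, and Il6 had 0, 0 and 1 and then 2, 0 and 0. Both genes stayed at or under 3 reads per diet, where no fold can be given and 3 reads correspond, by total count, to 0.188 CPM in the largest library (NCD1) and 0.58 CPM in the smallest (HFD3). Nlrp3, the inflammasome sensor, had 5, 0 and 2 reads on NCD and 0, 1 and 0 on HFD, and Casp1, the protease that cuts the IL-1β and IL-18 precursors, 17, 4 and 7 against 12, 15 and 4. Ccl2 had 25, 4 and 16 reads against 8, 7 and 1, Il1a 14, 8 and 5 against 11, 26 and 4, and Ikbke (IKKε) 21, 7 and 12 against 5, 9 and 5. Apart from Il1b, the read counts of the diets overlapped in each of these genes.

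Il18 was the one cytokine gene that could be tested, at 21.1, 31.0 and 44.1 CPM on NCD and 34.3, 31.5 and 24.6 CPM on HFD. The HFD values fell inside the NCD range, and the log2 fold change was -0.08 ± 0.27 (SE) with an interval from -0.66 to 0.51. Of the IL-1 receptor chains, Il1rap, the shared signalling chain, had -0.10 ± 0.23 (SE). Il1r1, the ligand-binding chain, was the most scattered of the 36 genes, at 1.81, 0.407 and 3.76 CPM on NCD and 1.99, 1.48 and 7.15 CPM on HFD. Its log2 fold change of 0.82 ± 0.74 (SE) rested on HFD3, without which it was -0.15.

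Genes outside the 44 were examined in the same table. Of 27 known NF-κB targets that are not among the 44, 21 passed the filter and none had p under 0.05 in edgeR, with a median log2 fold change of 0.00. The most abundant of them, Sod2 (mitochondrial superoxide dismutase), had -0.23, and Vcam1 and Icam1, adhesion molecules of activated endothelium, had -0.20 and 0.09. Of 50 further genes of the pathway, 39 passed and none had p under 0.05, also with a median of 0.00. The most abundant was Ube2n, a ubiquitin-conjugating enzyme that works with TRAF6. The 2 lists share members, and joined they held 71 genes, of which 54 were tested, 27 above and 27 below 0. Of the 54, only 1 had samples that did not overlap between the diets, where 6.47% of all genes tested showed such a separation. That was the Toll-like receptor gene Tlr13, named here after its values were seen. It lay at 1.38 ± 0.322 CPM on NCD and 2.42 ± 0.676 CPM on HFD (SD, n = 3 each), with a log2 fold change of 0.77 (edgeR adjusted p = 0.999).

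Markers of other cells of the region were set beside these values. The endothelial and astrocyte lists held 8 genes each, the arcuate list 14 and that of neighbouring nuclei 7. Of all genes tested, 2.3% had p under 0.05 in edgeR. In the endothelial list Ly6c1 (log2 fold change 0.81) and Cldn5, a tight junction protein (-0.48), had p under 0.05 in edgeR, both with an adjusted p = 0.999, and the median of the list was -0.00. Gfap was the one astrocyte marker with p under 0.05 (0.88, adjusted p = 0.999), and the median of that list was -0.02. The medians were 0.04 for general neuron markers, -0.14 for oligodendrocytes and -0.50 for red blood cells, with no gene at p under 0.05 in these 3 lists. Arcuate neuron markers had a median of 0.19, with Cartpt (0.75) and Tac2 (0.60) at p under 0.05 in edgeR. Those of neighbouring nuclei had a median of -0.19, with Avp (-1.71) and Oxt (-0.87) at p under 0.05. The edgeR adjusted p was 0.194 for Avp and 0.999 for Cartpt, Tac2 and Oxt. The part of these shifts in the values of the 44 genes was not tested.

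The libraries differed in size, with 15925648, 9937632 and 6882449 counts on NCD and 8024664, 10479778 and 5171381 counts on HFD. Several of the 44 genes varied with that size in both diets. Over the 6 samples and 36 relations, log2 CPM against the log2 total count gave Pearson's r = 0.97 for Ikbkg (exact permutation p = 0.00139, adjusted 0.025), 0.938 for Tbk1 (p = 0.00417, adjusted 0.0375), -0.963 for Tab2 (p = 0.00139, adjusted 0.025) and -0.966 for Irak1 (p = 0.00278, adjusted 0.0333). Spearman's rho was 1 for Ikbkg and -1 for Tab2 (exact permutation p = 0.00278, adjusted 0.05), and 0.943 for Tbk1 and -0.943 for Irak1 (p = 0.0167, adjusted 0.1). Without NCD1 and HFD3, the samples farthest from the median size, r was 0.969, 0.989, -0.942 and -0.950 in the same order. An r of at least 0.8 in size was found in 7 of the 36 genes (19.4%), beside 30.8% of all genes tested. With the log2 total count in the model, the log2 fold change of Irak1 went from 0.41 to 0.02 and that of Ikbkg from -0.32 to -0.01. Tbk1 went from -0.30 to 0.06 and Tab2 from 0.21 to -0.26. The others of the 7 were Nfkb2 (0.47 to -0.0052), Relb (0.27 to 0.06) and Tnfrsf1b (-0.25 to -0.07). Outside the 7, Traf2 went from 0.06 to 0.54 and Tlr4 from 0.45 to 0.99, while Cd14 was at 1.0, Tlr2 at 1.02 and Rel at -0.62. The log2 fold change of Irak1 was 0.04 without NCD1, the largest library, and 0.92 without NCD3.

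**Figure D5:**
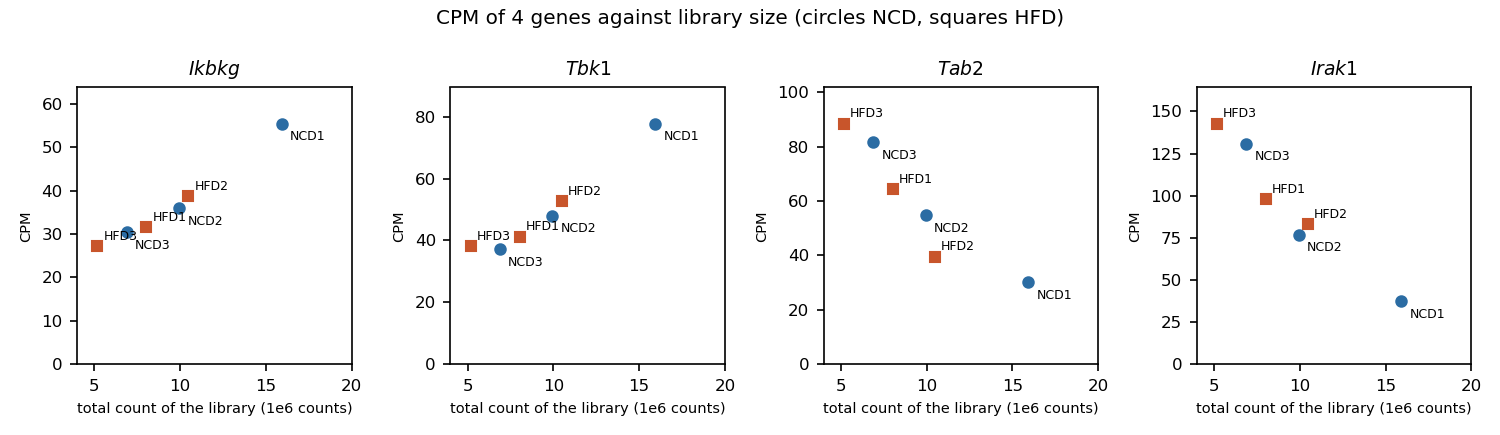
CPM of Ikbkg, Tbk1, Tab2 and Irak1 against the total count of each library; circles are NCD samples and squares HFD samples. CPM climbs with library size for Ikbkg and Tbk1 and descends for Tab2 and Irak1, with the samples of both diets along the same course.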

How the data were processed

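Per the labels, RNA was extracted with Trizol and enriched with oligo(dT), and the study's methods name a NovaSeq instrument. The authors compared the reads with a ribosomal database (bowtie2), aligned them with HISAT2 and quantified genes with StringTie and RSEM. Tool versions, the annotation release and the use of strand are not given in the sources used here, and the submitters' processing notes name the build mm10. The authors deposited raw read counts and FPKM values per gene and sample. Their mean FPKM, fold change, p-value and FDR columns hold their own comparison and were not used.

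Identifiers were matched to GENCODE M21 (GRCm38), and 22267 of 22322 had a symbol. Counts were filtered (filterByExpr), TMM-normalized and tested with edgeR 4.0.16 (quasi-likelihood, diet as the only term, Benjamini-Hochberg adjustment). Alternatives were DESeq2 1.42.0 on the 18177 genes with at least 1 count, and limma 3.58.1 on log2(FPKM + 1) with a mean FPKM of at least 0.5. Both changed the filter together with the test. CPM used TMM-adjusted library sizes (factors from 0.967 to 1.04), and log2 CPM used a prior count of 2. The edgeR fit was checked on data simulated with the same library sizes and a common spread for all genes. At an adjusted p under 0.05 it recovered 41 of 98 genes with a log2 fold change of 1 (41.8%). It recovered 96 of 96 genes with a log2 fold change of 2, and called 6 unchanged genes. A 2-fold change could therefore be missed. Scripts used R 4.3.3, Python 3.11.15 and SciPy 1.17.1. The floor of 3 counts takes in counting error alone, because without molecular identifiers reads can be copies of one molecule. Of the 44 genes, 31 share no exonic base with another gene, and Nfkbib, Nfkb2, Myd88 and Il1a share at least 10%, so their counts depend on how reads were divided.

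The genes, lists and tests were chosen with earlier results of these data known. Values per sample are given for genes with p under 0.05, the 5 most abundant, the core of the canonical pathway, the 3 largest rises and falls, genes whose diets do not overlap, and, as counts, genes below the filter. Values of Tnfrsf1a were added after they had been seen. Alternatives were other size factors and filters, another pseudocount, a replicate block, the total count as a covariate, and each sample left out. The values of 1 marker gene are not reported here.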

Additional observations from a re-analysis of the deposited data

How the results depend on the processing

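No gene of the 44 reached an adjusted p under 0.05 under any alternative, and the lowest was 0.604, without NCD3. Over the whole table the 8 genes with an adjusted p under 0.05 became 15 with every gene of at least 1 count, 19 with DESeq2, 5 with limma on log2(FPKM + 1) and 5 on log2(FPKM + 0.1), 17 with the replicate block, 15 with the total count as a covariate, and 1 to 16 with a sample left out. The 326 genes with p under 0.05 became 589 with the block and 197 to 1178 with a sample left out. Of the pathway genes, the 1 with p under 0.05 became 2 with every gene of at least 1 count and 2 with DESeq2 (Cd14 and Il1b), 0 with a mean of at least 50 counts (Cd14 was not tested), 3 with the replicate block (Cd14, Irak1 and Tnfrsf1a), 2 with the covariate (Cd14 and Tlr2), and 0 to 2 with a sample left out. Their median log2 fold change of 0.06 became -0.035 with a mean of at least 50 counts, 0.12 on log2(FPKM + 0.1), and -0.019 to 0.15 with a sample left out. Direction was kept in 214 of 233 values of the 16 genes followed. Nfkbia (0.00) turned to -0.0050 with every gene of at least 1 count, to -0.00051 with DESeq2 and to -0.13 with the covariate. Ikbkb (-0.14) turned to 0.10 and 0.12 on the FPKM scales and to 0.30 with the covariate, and Il1r1 (0.82) to -0.0021 with the covariate. With a sample left out, the range took in both signs for Il18 (-0.32 to 0.22), Nfkbia (-0.17 to 0.16), Nfkbib (-0.030 to 0.19), Chuk (-0.14 to 0.31), Rela (-0.12 to 0.061), Tnfaip3 (-0.11 to 0.88), Ikbkb (-0.44 to 0.27, the last without NCD1) and Il1r1 (-0.15 to 1.54, the first without HFD3). The cause was not tested. Same-numbered samples of the diets correlated at -0.01, 0.11 and 0.37 in their deviations from the group means, so the numbers were not taken as a pairing. The depth leaves genes under about 1 CPM without a usable fold change, and for Il1b only a limit was given.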

Other observations

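A gene's count divided by the library total, set against its FPKM, implies a transcript length for that gene in a sample. The lengths used are not given in the sources. Among the 13480 genes tested with at least 0.3 FPKM in every sample, 10.2% had a ratio that varied by more than 1.5 times between samples. Of the 36 pathway genes tested for a diet difference 34 met that level, and 6 of these varied by more than 1.5 times, Tlr7 (3.64), Traf3 (1.82), Bcl3 (1.71), Tnfaip3 (1.69), Ripk1 (1.63) and Tlr3 (1.54).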
